A study of Mus musculus with 4 samples.

Results

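Genes of the circadian clock, whose products keep daily time inside cells, were followed across the cell types of the mouse kidney in single-nucleus RNA-seq (snRNA-seq) data. They were chosen by symbol, as the rows of the deposited count matrices named *Arntl*, *Npas2*, *Clock*, *Per2*, *Per3*, *Cry1*, *Nr1d1*, *Nr1d2*, *Dbp* and *Tef*, 10 of 31053 genes listed, each with 1 row. The list was drawn up because these genes differed between the mice of this series, so that their values are given as a description, without tests. Single nuclei were sequenced from the kidneys of 4 male mice of 12 weeks, with 1 library per mouse. The knockout group was 2 Hoxb7Cre+;Tfap2a fl/fl mice, in which Cre driven by Hoxb7 removes exons 5 and 6 of *Tfap2a* in the collecting duct and the lower urinary tract, and the control group was 2 Cre-negative mice, whose *Tfap2a* is floxed on both alleles as well (*Tfap2a* fl/fl). A middle slice of the kidney was used with its cortex trimmed, so that medulla was enriched, and it was kept in RNAlater before nuclei were isolated. Mice lived under a light/dark cycle, and the controls were littermates. The hour of day at which each kidney was taken is not given in the sources used here, so that genotype, hour and individual mouse cannot be told apart in what follows.

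The clock is a loop of transcription. BMAL1, the product of *Arntl*, pairs with CLOCK or its relative NPAS2 and switches on genes that carry an E-box, among them those of the PER and CRY proteins, which return to the nucleus and shut their own activators off. A second loop runs through the nuclear receptors REV-ERBα (*Nr1d1*) and REV-ERBβ (*Nr1d2*), which repress *Arntl* and *Npas2*, while the ROR receptors activate them from the same sites. DBP, TEF and HLF are transcription factors of the PAR bZIP family that act at D-boxes and carry the rhythm to other genes. Across a day, transcripts of *Arntl* and *Npas2* peak opposite to those of *Nr1d1* and *Dbp*, and those of *Per2* and then *Cry1* follow after *Dbp*, while *Clock* varies little in most tissues. The kidney has such clocks along the nephron, and they take part in the daily course of salt and water excretion.

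Each library held between 22179410 and 44964099 unique molecular identifiers (UMIs), tags that mark single RNA molecules, and gave between 5430 and 7998 nuclei with median UMIs of 2506 to 2797. Mouse 1 of each genotype had more UMIs in all than mouse 2 (42138345 and 44964099 against 24998797 and 22179410) and a higher median mitochondrial share (1.66% and 1.05% against 0.671% and 0.417%). Any pair of libraries shared 7 to 18 nucleus barcodes. Clusters were assigned to 12 classes by their markers, each with between 4 and all of its listed markers, and the summed level of a class's markers was higher in that class than in any other. The tissue still held cortical cells, among them podocytes (0.413% of the nuclei), distal convoluted tubule (2.82%) and connecting tubule (2.66%). Proximal tubule made up 50.5%. None of the clock genes listed was among the 2000 variable genes on which nuclei were clustered. *Tfap2a* itself, looked at as the targeted gene, had 57.2 and 97.8 CPM in the controls and 66.1 and 106 CPM in the knockouts in collecting duct principal cells, in UMIs per 1000000 UMIs of the class (CPM), and the groups overlapped. Connecting tubule had 119 and 124 CPM against 73.9 and 70.6 CPM, and the deep medullary epithelium of the pelvis had 40.4 and 25.1 CPM in the controls and 0 UMIs in both knockout mice, on 21 UMIs in all. These libraries count transcripts from their 3′ end, and reads of a transcript without exons 5 and 6 can still be counted, so that this does not check the deletion.

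Promoter sequences are shown for *Tef*, *Cry1* and *Nr1d1*, the listed genes in which an E-box or its variant was found just upstream of the start, and for *Arntl*, an activator that binds such boxes, in which none was found. The genes lie, on GRCm38.p6, with *Npas2* (ENSMUSG00000026077) at chr1:39193702-39363240, *Per2* (ENSMUSG00000055866) at chr1:91415977-91459351, *Clock* (ENSMUSG00000029238) at chr5:76209868-76305603, *Dbp* (ENSMUSG00000059824) at chr7:45705100-45710203, *Arntl* (ENSMUSG00000055116) at chr7:113178471-113314126, *Cry1* (ENSMUSG00000020038) at chr10:85131700-85185054, *Nr1d1* (ENSMUSG00000020889) at chr11:98767932-98775377, *Nr1d2* (ENSMUSG00000021775) at chr14:18204056-18239106 and *Tef* (ENSMUSG00000022389) at chr15:81802673-81826863. The sequences are the 250 bases before the annotated start, from RefSeq on GRCm38.p6, the assembly also called mm10, written 5′ to 3′ on the strand of the gene with the motif in capitals. Windows were available for 9 of the 10 genes. *Tef* (chr15:81802423-81802672, plus strand) held the E-box CACGTG 127 bases before its start, and the window of its second start held another 138 bases before. *Cry1* (chr10:85185055-85185304, minus strand) held CACGTG 60 bases before its start and CACGTT, read on the other strand as AACGTG, 79 bases before. *Nr1d1* (chr11:98775378-98775627, minus strand) held the same AACGTG 28 bases before its start. *Arntl* (chr7:113207215-113207464, plus strand, its first listed start) held none of the motifs searched.
Tef: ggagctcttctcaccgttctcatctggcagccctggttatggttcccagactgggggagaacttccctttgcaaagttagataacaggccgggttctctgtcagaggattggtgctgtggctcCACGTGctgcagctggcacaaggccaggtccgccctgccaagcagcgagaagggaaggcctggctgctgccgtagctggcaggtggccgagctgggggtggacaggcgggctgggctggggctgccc
Cry1: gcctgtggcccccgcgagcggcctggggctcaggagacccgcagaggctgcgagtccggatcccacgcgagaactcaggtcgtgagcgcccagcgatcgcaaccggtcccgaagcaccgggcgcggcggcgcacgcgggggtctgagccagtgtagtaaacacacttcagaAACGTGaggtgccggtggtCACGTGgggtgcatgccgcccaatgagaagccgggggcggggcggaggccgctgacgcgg
Nr1d1: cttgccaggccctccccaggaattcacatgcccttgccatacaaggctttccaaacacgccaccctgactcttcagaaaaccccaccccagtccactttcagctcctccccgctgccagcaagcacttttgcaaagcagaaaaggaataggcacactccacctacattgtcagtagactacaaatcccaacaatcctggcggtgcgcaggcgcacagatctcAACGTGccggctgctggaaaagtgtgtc
Arntl: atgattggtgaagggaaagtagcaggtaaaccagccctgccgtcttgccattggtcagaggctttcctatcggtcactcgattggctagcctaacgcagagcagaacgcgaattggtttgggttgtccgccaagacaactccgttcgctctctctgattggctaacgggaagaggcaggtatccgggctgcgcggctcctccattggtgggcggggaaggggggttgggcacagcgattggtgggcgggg
On both strands, CACGTG occurred in 6.02% of all 32851 promoter windows of this length and CACGTT in 3.85%. The D-box, searched as TTATGTAA or TTACGTAA, occurred in 0.931% of all windows and, among the genes listed, in that of *Per3*, which held TTATGTAA at 205 and at 158 bases before its start. The core of the ROR element, searched as TAGGTCA or TGGGTCA, occurred in 5.38% of all windows and in none of the genes listed. No motif shares letters with another in these windows, and a match of letters does not show that a site is used. Sites outside or at the edge of a window, or with other letters, were not searched. A lack of matches therefore does not show that a gene has no such site.

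*Per3* is listed at 0 in all 4 libraries and was not analysed here. The other 9 genes had between 446 UMIs (*Cry1*) and 19642 UMIs (*Tef*) in the named classes. With at least 10 UMIs over the 4 mice, 97 combinations of gene and class could be compared mouse by mouse. Both knockout mice lay above both control mice in 49 of these and below both in 23, and the genotypes overlapped in 25. Over all genes and classes with as many UMIs, both knockout mice lay above in 14.9% and below in 15.0% of combinations. Since the genes were chosen for their difference between these mice, nothing is read from this contrast. In the proximal tubule 4 clock genes lay above and 2 below, where the shares over all genes were 16.6% and 13.9%. In the thick ascending limb, where they were 14.6% and 15.0%, 5 lay above and 2 below. In principal cells, a class of the collecting duct, where Hoxb7Cre acts, these shares were 14.2% and 13.1%, and again 5 lay above and 2 below. Immune cells came to 11 nuclei in knockout mouse 2, and only *Clock* and *Nr1d2* had enough UMIs there.

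Leaving immune cells aside, the median log2 fold change of the clock genes, knockout against control as fitted by edgeR, lay between 0.26 in the proximal tubule and 1.62 in the connecting tubule, where the median over all genes of any class lay between -0.07 and 0.03. It was 0.65 in intercalated cells, 0.72 in thin limb, 0.74 in thick ascending limb, 0.87 in the epithelium of the pelvis and 1.08 in podocytes. It was 1.13 in endothelial cells, 1.22 in interstitial cells, 1.28 in principal cells and 1.36 in distal convoluted tubule. Nothing is read from this contrast with all genes either, since the genes were chosen for their difference. The sign and size of such a median also depend on how many genes of each direction were listed. Both knockout mice lay below both controls for *Arntl* in 8 of 11 classes and for *Npas2* in 10 of 11, and they lay above for *Per2*, *Nr1d1*, *Nr1d2*, *Dbp* and *Tef* in most classes. *Clock*, with the genotypes overlapping in 8 of 12 classes, and *Cry1*, with 6 of 8, had no order of genotypes in most.

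**Figure D1:**
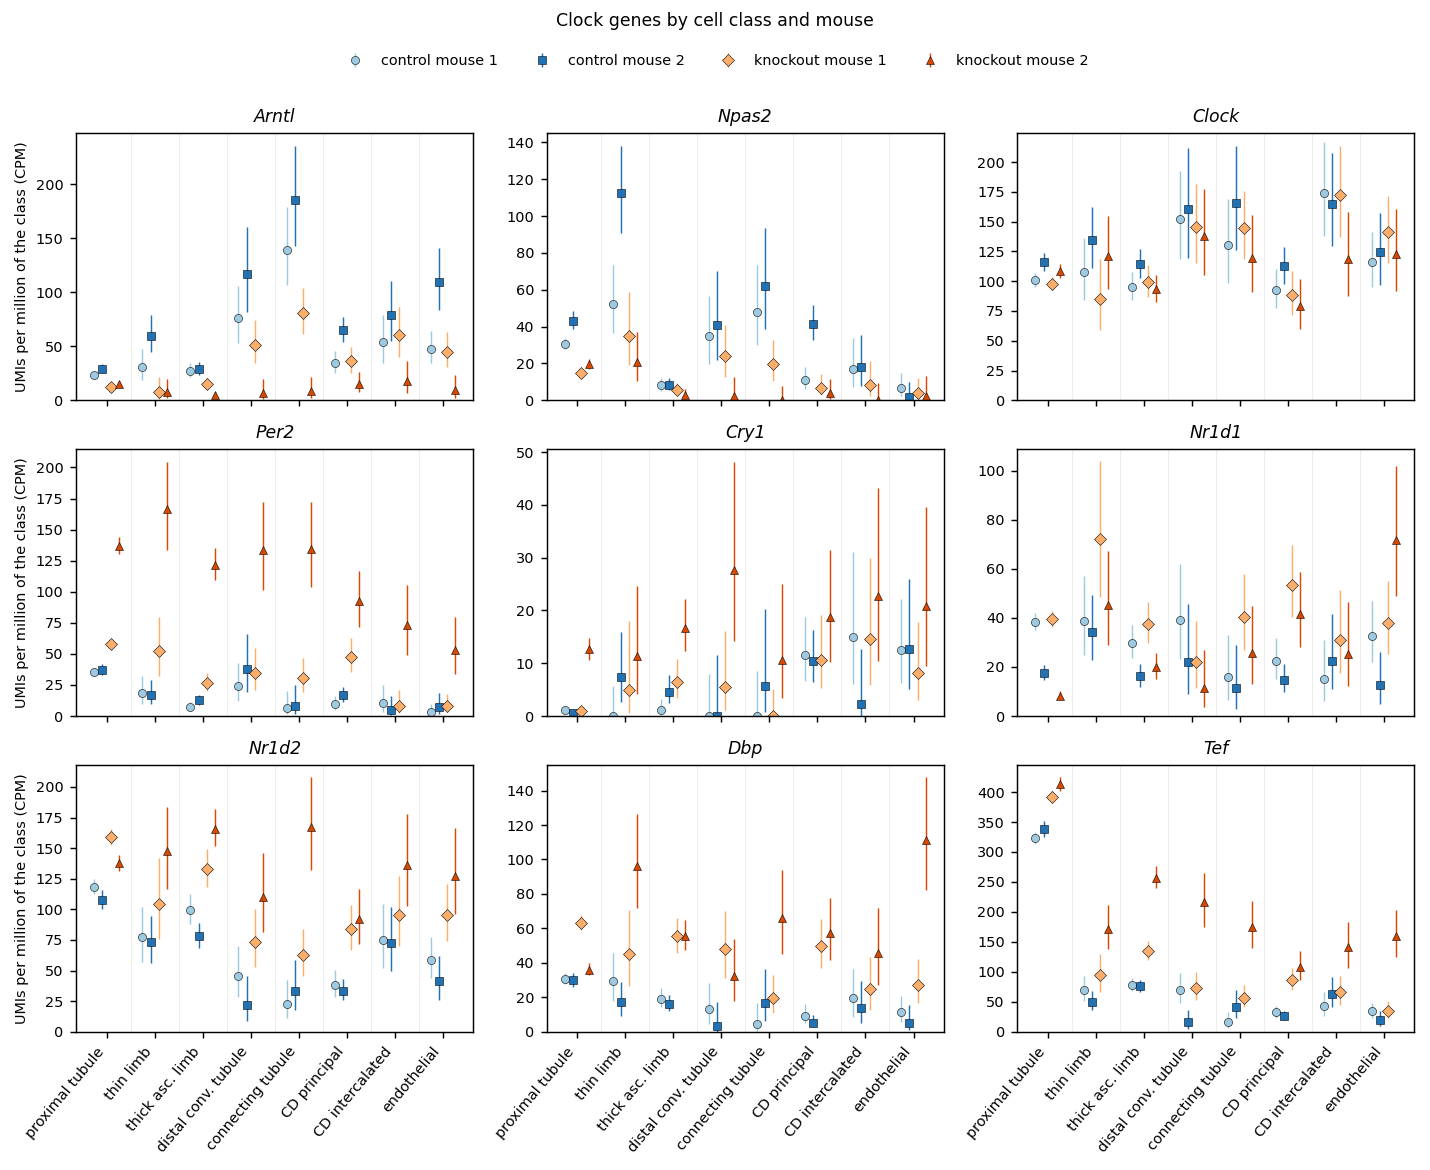
Level of each clock gene in CPM (UMIs per 1000000 UMIs of the class) in the 8 classes with at least 50 nuclei in each mouse, with 1 point per mouse and bars for the exact 95% Poisson interval of its count. Per2 of knockout mouse 2 stands above the other mice in every class shown, while Arntl of the same mouse is lowest in 6 of the 8, all but proximal tubule and thin limb.

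Among the activators, *Arntl* had 139.6 and 185 CPM in the controls and 80.8 and 8.56 CPM in the knockouts in the connecting tubule, the segment where it was highest. Control mouse 2 was highest there and knockout mouse 2 lowest, and the genotypes did not overlap. The same order of mice was found in the distal convoluted tubule, with 76.0 and 117 CPM against 51.6 and 6.90 CPM, and in endothelial cells, with 47.5 and 109.9 CPM against 44.9 and 9.28 CPM. In interstitial cells control mice had 107 and 215 CPM and knockout mouse 1 83.8 CPM, while knockout mouse 2 had 0 UMIs, which allows up to 41.9 CPM. Intervals and such limits cover counting error only. In the proximal tubule, with the most UMIs, *Arntl* had 23.6 and 29.4 CPM in the controls and 12.3 and 15.1 CPM in the knockouts, so that knockout mouse 1 rather than knockout mouse 2 was lowest. Collecting duct principal cells had 34.7 and 64.7 CPM against 36.0 and 14.7 CPM, and here control mouse 1 and knockout mouse 1 were alike. Of 10 classes with at least 20 UMIs, control mouse 2 was highest in 9 and knockout mouse 2 lowest in 8.

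*Npas2*, which can stand in for *Clock* as the partner of BMAL1, followed *Arntl*. Thin limb had 52.4 and 113 CPM in the controls and 34.9 and 20.8 CPM in the knockouts, and proximal tubule had 30.8 and 43.3 CPM against 14.7 and 19.6 CPM. In both segments control mouse 2 was highest, and the genotypes did not overlap. Knockouts lay below controls in 9 of 9 classes with at least 20 UMIs for *Npas2*, and control mouse 2 was highest in all 9. Interstitial cells had the highest values of any class in the controls and knockout mouse 1, with 178 and 222 and 136 CPM, and a single UMI in knockout mouse 2. *Clock* itself was close to flat in the largest classes, with 101 and 116 CPM in the controls and 97.9 and 108 CPM in the knockouts in the proximal tubule and 95.5 and 114 CPM against 99.4 and 93.1 CPM in the thick ascending limb. In smaller classes it could differ more, with means of 184 CPM in controls and 78.5 CPM in knockouts in interstitial cells. In the epithelium of the pelvis these were 99.1 and 54.7 CPM. Its genotypes overlapped in 7 of 11 classes, and in the other 4 both knockout mice lay below both controls. Control mouse 2 was highest in 9 of the 11, as it was for both other activators.

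Of the repressors, *Per2* separated the mice most clearly. In the proximal tubule it had 35.3 and 37.1 CPM in the controls and 58.2 and 137 CPM in the knockouts, and in the thick ascending limb 7.37 and 12.5 CPM against 26.6 and 122 CPM. Knockout mouse 1 stood between the controls and knockout mouse 2 in both segments. Connecting tubule had 6.86 and 8.43 CPM against 30.7 and 135 CPM, thin limb 18.5 and 17.1 CPM against 52.4 and 166 CPM and collecting duct principal cells 9.41 and 16.8 CPM against 47.7 and 92.3 CPM. In all 3 the order of genotypes was the same, without overlap. In endothelial cells, with few *Per2* UMIs, the levels were 3.39 and 7.21 CPM against 8.17 and 53.4 CPM, so that knockout mouse 1 was near the controls. Knockout mouse 2 was highest in each of the 9 classes with at least 20 *Per2* UMIs, and a control mouse was lowest in each. Log2 ratios of the knockout mean to the control mean, with 1 CPM added to each, were 1.40 in proximal tubule, 2.78 in thick ascending limb and 2.33 in principal cells. In each of the 3, knockout mouse 1 was nearer in CPM to the control mean than to knockout mouse 2, so that 1 mouse carried much of the difference. Without knockout mouse 2 these log2 ratios were 0.67, 1.33 and 1.79.

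*Cry1*, the cryptochrome whose transcript comes late in the daily cycle, was scarce. In the proximal tubule it had 1.15 and 0.546 CPM in the controls and 1.01 and 12.6 CPM in the knockouts, from 148 UMIs in knockout mouse 2 and 4 to 15 UMIs in each other mouse. Only knockout mouse 2 stood apart there, since knockout mouse 1 lay among the controls. Thick ascending limb had 1.11 and 4.62 CPM against 6.41 and 16.7 CPM. Principal cells had 11.6 and 10.5 CPM against 10.7 and 18.7 CPM, 3 mice alike and 1 higher. Knockout mouse 2 was highest in all 5 classes with at least 20 UMIs, although the genotypes did not overlap in only 1 of them, the thick ascending limb.

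Among the REV-ERB receptors, *Nr1d2* was higher in both knockout mice than in both controls in all 11 classes with at least 20 UMIs. It had 99.6 and 78.2 CPM in the controls and 133 and 166 CPM in the knockouts in the thick ascending limb and 22.9 and 33.7 CPM against 62.7 and 167 CPM in the connecting tubule, with knockout mouse 2 highest. In the proximal tubule it had 119 and 108 CPM against 159 and 138 CPM, and there knockout mouse 1 was highest. *Nr1d1* had both knockout mice above both controls in 5 of 8 such classes, and in the other 3 the genotypes overlapped. Proximal tubule had 38.3 and 17.5 CPM in the controls and 39.4 and 8.37 CPM in the knockouts, with mouse 1 of each genotype high and mouse 2 low, so that the genotypes overlapped. Depth and mitochondrial share, given above, divided the mice the same way, and their part in this was not tested. In endothelial cells, by contrast, *Nr1d1* had 32.8 and 12.6 CPM against 38.1 and 71.9 CPM, highest in knockout mouse 2. Principal cells had 22.4 and 14.7 CPM against 53.5 and 41.5 CPM and thin limb 38.6 and 34.3 CPM against 72.3 and 45.3 CPM, and both knockout mice were above both controls in each. Over 8 classes with at least 20 UMIs, knockout mouse 1 was highest in 6.

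*Dbp* and *Tef*, the PAR bZIP factors, were higher in the knockout mice almost throughout. *Dbp* had 9.41 and 5.26 CPM in the controls and 49.6 and 57.5 CPM in the knockouts in principal cells and 19.2 and 16.2 CPM against 55.4 and 55.6 CPM in the thick ascending limb, where both knockout mice were alike. Endothelial cells had 11.3 and 5.41 CPM against 27.2 and 111 CPM, with a wide gap between the knockout mice. Both knockout mice exceeded both controls in all 10 classes with at least 20 *Dbp* UMIs. In podocytes, scarce in this tissue, 25 of 28 *Dbp* UMIs came from the 23 podocyte nuclei of knockout mouse 2. *Tef* had 78.2 and 76.6 CPM in the controls and 135 and 257 CPM in the knockouts in the thick ascending limb, 32.6 and 26.3 CPM against 86.6 and 108 CPM in principal cells and 33.9 and 19.8 CPM against 35.4 and 160.1 CPM in endothelial cells. Knockout mouse 2 was highest in all 11 classes with at least 20 *Tef* UMIs. The proximal tubule had 324 and 338 CPM against 392 and 413 CPM, a far narrower span between mice, with log2 ratios of knockout to control means of 0.28 there and 1.33 in thick ascending limb.

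For *Per2*, *Arntl*, *Nr1d2*, *Dbp* and *Tef*, RNA outside nuclei had the order of genotypes found in most classes, but this did not hold for every gene. In barcodes under 100 UMIs, which hold free RNA, *Per2* had 10.6 and 12.3 CPM in the control libraries and 19.0 and 81.9 CPM in the knockout libraries, and *Arntl* had 12.6 and 17 CPM in the control libraries and 10.3 and 4.55 CPM in the knockout libraries. *Nr1d2* had 73.4 and 60.0 CPM in the control libraries against 87.3 and 132 CPM. *Dbp* had 26.7 and 28.7 CPM against 54.8 and 81.9 CPM, and *Tef* 134 and 105 CPM against 174 and 200 CPM. The genotypes overlapped for *Cry1*, with 1.01 and 5.33 CPM against 2.38 and 10.7 CPM. They also overlapped for *Nr1d1*, with 47.3 and 28.7 CPM against 42.1 and 23.4 CPM. *Clock* had 44.8 and 60.0 CPM in the control libraries against 59.5 and 67.3 CPM, highest in knockout mouse 2. *Npas2* had 10.6 and 15.7 CPM against 12.7 and 6.50 CPM, with knockout mouse 1 between the controls. Markers of proximal tubule, summed over 9 genes, ran differently in other classes: in the thick ascending limb they came to 1034 and 570.2 CPM in the controls and 1373 and 317 CPM in the knockouts, highest in knockout mouse 1 and lowest in knockout mouse 2. In 9 of the 11 classes other than proximal tubule, both mice numbered 1 had more of these markers than both mice numbered 2. Over classes with at least 20 UMIs, the mice were divided in this way for *Nr1d1* in 3 of 8 and for *Clock* in 1 of 11, and for the other 7 genes in none. Both mice numbered 1 lay below both numbered 2 for *Clock* in 2 classes, for *Per2* in 1 and for *Cry1* in 1. With the free RNA profile of each library subtracted, both knockout mice lay above both controls in 37 combinations of clock gene and class and below in 22, where the shares over all genes became 16.6% and 16.2%. Of the 97 log2 ratios of knockout to control means, 25 then moved by more than the spread between mice, and none changed sign.

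To set the mice in order within a class without regard to its depth, UMIs of *Per2* were divided by those of *Arntl* in the same library, with 0.5 added to each. The log2 ratio in the connecting tubule was -4.14 and -4.25 in controls against -1.38 and 3.82 in knockouts. In thick ascending limb it was -1.86 and -1.20 in controls against 0.85 and 4.70 in knockouts. Proximal tubule had the highest ratios in the controls and spanned less, with 0.58 and 0.34 in controls against 2.24 and 3.18 in knockouts. Knockout mouse 2 had the highest ratio in 12 of 12 classes, and knockout mouse 1 came second in 10 of them. The exceptions to the second place were intercalated cells, with -2.71 in knockout mouse 1 and -2.21 in control mouse 1, and immune cells, with 5 UMIs of both genes in all.

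**Figure D2:**
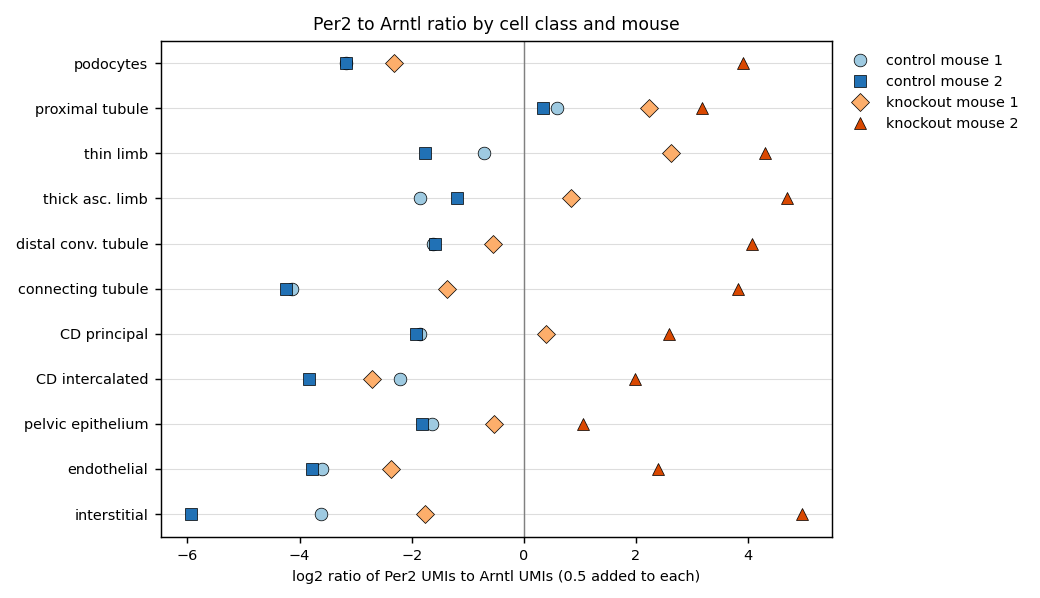
Log2 ratio of Per2 UMIs to Arntl UMIs, with 0.5 added to each, for each class (rows) and mouse (symbols), immune cells left out. Knockout mouse 2 lies farthest right in every row, and the controls lie left of 0 except in the proximal tubule, with 0.58 and 0.34.

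The knockout mice differed from each other by an amount that depended on the class. For *Tef*, the ratio of knockout mouse 2 to knockout mouse 1 was 1.05 (1.01 to 1.10) in the proximal tubule, with the exact 95% interval of the counts in parentheses, 1.91 (1.67 to 2.19) in thick ascending limb and 4.52 (2.84 to 7.40) in endothelial cells. For *Dbp*, it was 0.570 (0.506 to 0.641), 1.00 (0.787 to 1.28) and 4.09 (2.38 to 7.28) in the same classes, so that the order of both mice turned round between proximal tubule and endothelium. *Nr1d1* turned likewise, from 0.212 (0.170 to 0.264) in proximal tubule to 1.89 (1.10 to 3.27) in endothelial cells. For *Nr1d2* the ratio was 0.868 (0.814 to 0.926) in proximal tubule and 2.66 (1.82 to 3.93) in connecting tubule. *Arntl* ran the other way, with 1.23 (0.989 to 1.52) in proximal tubule but 0.106 (0.0279 to 0.286) in connecting tubule. Among the classes with at least 4 UMIs in each knockout mouse, proximal tubule had the lowest ratio for *Nr1d1*, *Nr1d2*, *Dbp* and *Tef* and the highest for *Arntl* and *Npas2*. For *Npas2* this rests on 3 classes, with 1.33 (1.10 to 1.61) in proximal tubule, 0.595 (0.244 to 1.41) in thin limb and 0.569 (0.212 to 1.47) in thick ascending limb, and the last 2 intervals include 1. Proximal tubule had the highest for *Cry1* too, 12.5 (7.24 to 23.5). It was at neither end for *Clock*, with 0.469 in podocytes to 1.43 in thin limb. Nor was it for *Per2*, with 1.94 in principal cells to 8.83 in intercalated cells. These ratios rest on 1 mouse against 1, and their intervals leave out the spread between mice. When libraries were clustered without integration, 1432 of 1458 nuclei of a proximal tubule cluster and 861 of 884 of another came from knockout mouse 2. Their median mitochondrial shares were 0.402% and 0.224%, against 0.939% to 1.10% in the other proximal tubule clusters. The part of this in the ratios of proximal tubule was not tested.

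**Figure D3:**
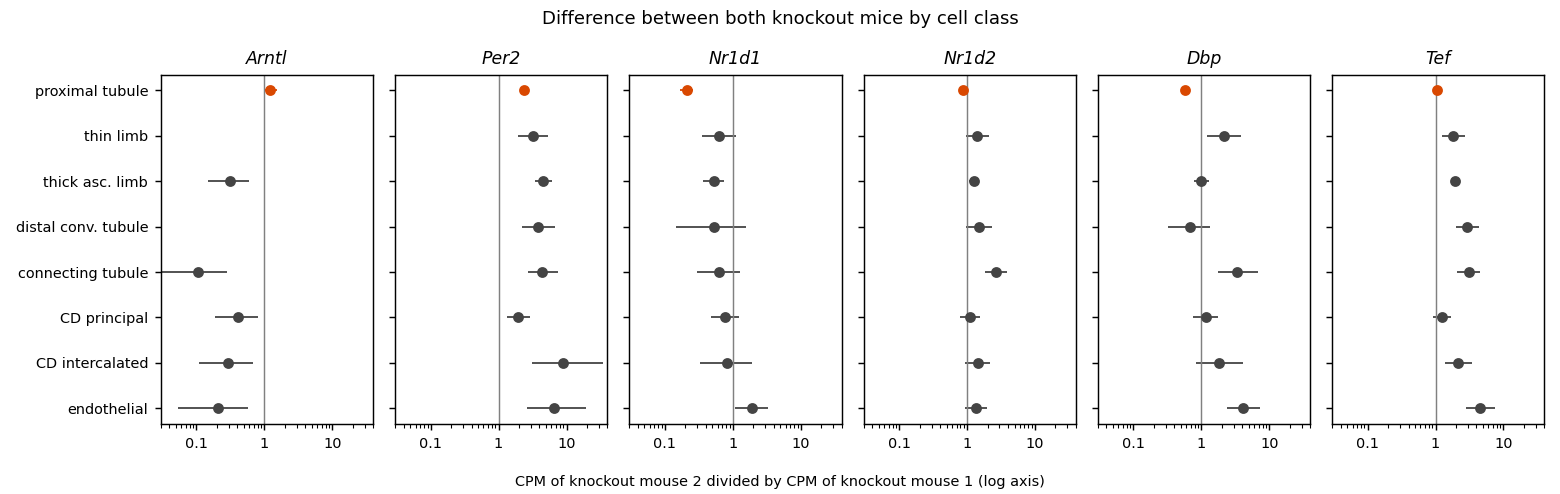
CPM of knockout mouse 2 divided by that of knockout mouse 1 (log axis) for 6 genes in the classes with at least 50 nuclei and 4 UMIs in each of these mice, with exact 95% intervals of the 2 counts; proximal tubule is orange. For Nr1d1, Nr1d2, Dbp and Tef the orange point lies farthest left, and for Arntl farthest right.

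The order of mice was also taken cluster by cluster. With libraries integrated, proximal tubule had 5 clusters with at least 50 nuclei in every mouse. Knockout mouse 2 had the highest *Per2* in all 5 and the lowest *Nr1d1* in all 5, and knockout mouse 1 had the highest *Dbp* in all 5. *Nr1d1* lay between 6.19 and 12.4 CPM in these clusters in knockout mouse 2 and between 27.2 and 48.3 CPM in knockout mouse 1. Over all 14 clusters of this size, knockout mouse 2 was highest in 14 for *Per2* and in 14 for *Tef*. Control mouse 2 was highest in 11 for *Arntl*.

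Levels across cell types were compared within a gene over the 8 classes with at least 50 nuclei in each mouse, as means ± SD over the 4 mice. *Tef* had the clearest order. It was highest in proximal tubule in all 4 mice, at 367 ± 42.6 CPM (SD, n = 4), followed by thick ascending limb at 137 ± 84.9 CPM, and its lowest proximal tubule value lay above the highest of any other class. Thick ascending limb in turn exceeded thin limb in every mouse. Ranges overlapped from thin limb (96.6 ± 53.4 CPM) through distal convoluted tubule (93.8 ± 85.7 CPM), intercalated cells (78.6 ± 43.3 CPM), connecting tubule (72.7 ± 70.6 CPM) and principal cells (63.5 ± 40.4 CPM) to endothelial cells (62.3 ± 65.6 CPM). *Npas2* was highest in thin limb in all 4 mice, at 55.2 ± 40.4 CPM (SD, n = 4), and came next in connecting tubule at 32.3 ± 27.8 CPM, proximal tubule at 27.1 ± 12.7 CPM and distal convoluted tubule at 25.5 ± 17 CPM, whose ranges overlapped. Principal cells had 15.8 ± 17.4 CPM and intercalated cells 10.9 ± 8.51 CPM. It was scarcest in thick ascending limb, at 6.25 ± 2.44 CPM, and endothelial cells, at 3.75 ± 2.25 CPM, and thick ascending limb exceeded endothelial cells in every mouse.

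*Arntl* was highest in connecting tubule, at 104 ± 76.5 CPM (SD, n = 4), and there exceeded distal convoluted tubule, at 62.8 ± 45.9 CPM, in all 4 mice. Endothelial and intercalated cells came next with 52.9 ± 41.8 CPM and 52.7 ± 25.7 CPM, without an order that held over mice. Principal cells followed with 37.5 ± 20.6 CPM, then thin limb with 26.5 ± 24.9 CPM, proximal tubule with 20.1 ± 7.82 CPM and thick ascending limb with 18.9 ± 11.5 CPM. Ranges of these last 3 overlapped over the 4 mice, but their order depended on the group. Thin limb had a mean of 45.4 CPM in the controls and 7.52 CPM in the knockouts. Proximal tubule had 26.5 and 13.7 CPM, and thick ascending limb 28.2 and 9.59 CPM. Intercalated cells exceeded principal cells, and these thin limb, in every mouse, though the ranges of all neighbours overlapped. *Clock* ranged least over classes, from 158 ± 26.1 CPM in intercalated cells to 93.2 ± 14.1 CPM in principal cells. Distal convoluted tubule (149 ± 9.72 CPM), connecting tubule (140.2 ± 19.9 CPM) and endothelial cells (126 ± 10.7 CPM) lay above thin limb (112 ± 21.2 CPM), proximal tubule (106 ± 8.04 CPM) and thick ascending limb (101 ± 9.61 CPM), although neighbours in this order overlapped, and of neighbouring pairs only thick ascending limb and principal cells kept their order in every mouse. Intercalated cells, distal convoluted tubule, connecting tubule and endothelial cells each lay above principal cells without overlap, with no value under 116 CPM against 113 CPM at most in principal cells.

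For *Per2* the mice differed widely within each class. Its mean was highest in proximal tubule, at 66.9 ± 47.8 CPM (SD, n = 4), and lowest in endothelial cells, at 18.0 ± 23.6 CPM, and between them stood thin limb (63.6 ± 70.3 CPM), distal convoluted tubule (57.5 ± 50.9 CPM), connecting tubule (45.2 ± 60.7 CPM), thick ascending limb (42.0 ± 53.6 CPM), principal cells (41.6 ± 37.7 CPM) and intercalated cells (24.2 ± 32.9 CPM). No pair of neighbours kept its order in all 4 mice. Farther apart, proximal tubule exceeded thick ascending limb, connecting tubule, principal cells, intercalated cells and endothelial cells in every mouse. For connecting tubule the gap in knockout mouse 2 was narrow, at 137 against 135 CPM. *Cry1* was highest in intercalated cells (13.7 ± 8.48 CPM), endothelial cells (13.5 ± 5.32 CPM) and principal cells (12.9 ± 3.93 CPM) and lowest in proximal tubule (3.83 ± 5.87 CPM). It lay between these in distal convoluted tubule (8.28 ± 13.1 CPM), thick ascending limb (7.20 ± 6.69 CPM), thin limb (5.92 ± 4.73 CPM) and connecting tubule (4.08 ± 5.15 CPM), on 7 to 79 UMIs a class, and no neighbours were told apart.

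*Nr1d2* was highest in proximal tubule in 3 of 4 mice, at 131 ± 22.4 CPM (SD, n = 4). Thick ascending limb (119 ± 38.5 CPM) exceeded thin limb (101 ± 34.1 CPM), thin limb exceeded intercalated cells (94.96 ± 29.6 CPM) and these exceeded endothelial cells (80.8 ± 38.5 CPM), each in all 4 mice, while connecting tubule (71.6 ± 65.7 CPM), distal convoluted tubule (62.9 ± 38.0 CPM) and principal cells (62.0 ± 30.3 CPM) had no stable order. *Nr1d1* was highest on average in thin limb (47.6 ± 17.1 CPM), then in endothelial cells (38.9 ± 24.6 CPM) and principal cells (33.0 ± 17.7 CPM), and all other classes lay between 23.3 and 25.9 CPM. *Dbp* spanned from 46.9 ± 34.8 CPM in thin limb to 24.1 ± 19.9 CPM in distal convoluted tubule. It was highest in proximal tubule (40.05 ± 15.8 CPM) in 3 of 4 mice, and in endothelial cells (38.8 ± 49.2 CPM) in knockout mouse 2. Thick ascending limb (36.6 ± 21.9 CPM), principal cells (30.5 ± 26.9 CPM), connecting tubule (26.8 ± 27.1 CPM) and intercalated cells (25.9 ± 13.9 CPM) came between, and no neighbours of *Dbp* or *Nr1d1* kept their order in all mice.

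The 4 smaller classes were kept out of these orders. Interstitial cells, with 32 to 84 nuclei a mouse, had the highest *Npas2* of any class, at 137 ± 89.4 CPM (SD, n = 4), and *Arntl* at 101 ± 88.4 CPM. In podocytes, with 18 to 40 nuclei, *Nr1d2* came to 112 ± 129.7 CPM and *Tef* to 113 ± 88.7 CPM. The deep medullary epithelium of the pelvis, with 31 to 93 nuclei, had the lowest *Tef*, at 33.4 ± 12.7 CPM, and *Clock*, at 76.9 ± 28.5 CPM. In immune cells, *Clock* had 94.9 ± 21.4 CPM and *Nr1d2* 54.2 ± 46.7 CPM.

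Which genes were most like each clock gene was asked first over mice, on log2 levels (10 CPM added) centred within a class, over 32 points of 8 classes and 4 mice. These points share 4 libraries, and the correlations are descriptive. Of 8407 genes compared, *Arntl* was most like *Npas2* (r = 0.86) and *AC149090.1* (r = 0.86), and *Npas2* was most like *Arntl* (r = 0.86) and *Dcdc2a* (r = 0.84). *Nr1d2* was most like *Tef* (r = 0.93) and *Dbp* (r = 0.91), both of them on the list. *Dbp* was nearest to *Nr1d2* (r = 0.91) and *Tef* (r = 0.90), and *Tef* to *Nr1d2* (r = 0.93) and *Dbp* (r = 0.90). *Per2* came nearest to *Cry2* (r = 0.86), another cryptochrome, and *Clk4* (r = 0.86). Outside the clock, *Cry1* was nearest to *Tmem57* (r = 0.86) and *Ddx42* (r = 0.79), *Nr1d1* to *Hes6* (r = 0.79) and *Endog* (r = 0.72), and *Clock* to *Pabpc1* (r = 0.72) and *Erbb2* (r = 0.71). Over the means of the 8 classes, the nearest gene was *0610005C13Rik* (r = 0.98) for *Tef*, *Snx25* (r = 0.98) for *Nr1d2*, *Ift74* (r = 0.97) for *Per2*, *Slc8a1* (r = 0.97) for *Arntl*, *Stmn1* (r = 0.97) for *Nr1d1*, *Eif2ak2* (r = 0.96) for *Cry1*, *Tmem176b* (r = 0.96) for *Dbp*, *Zfp975* (r = 0.96) for *Npas2* and *Mtf2* (r = 0.93) for *Clock*. With 8 points and so many genes, high values arise readily.

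The rest of the clock was examined with a list of 23 further genes, which were tested between genotypes with edgeR's quasi-likelihood test on UMIs summed per mouse and class, adjusted over all genes of the class. Of 210 combinations of gene and class with enough UMIs, 0 passed an adjusted p of 0.05 as higher and 0 as lower in the knockout mice, by edgeR and by DESeq2. Over all genes and classes edgeR called 0.00378% higher and 0.00378% lower, so that few differences of any kind passed with 2 mice against 2. At an unadjusted p under 0.05 by edgeR, 30 combinations were higher and 4 lower, beside 1.5% and 1.68% over all genes and classes. The median log2 fold change of the list ran over the 12 classes from -0.69 in immune cells, -0.18 in the epithelium of the pelvis and 0.03 in interstitial cells to 0.71 in podocytes. Thick ascending limb had 0.40 and proximal tubule 0.25. The median over all genes of a class lay between -0.07 and 0.03. This list was chosen with earlier results of these data known. Nothing is therefore read from its unadjusted counts or its medians beside those of all genes.

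Among the other repressors, *Per1* had 15.5 and 7.59 CPM in the controls and 28.9 and 48.3 CPM in the knockouts in the thick ascending limb, higher in both knockout mice than in both controls, with a log2 fold change of 1.74 ± 0.40 (SE) and an adjusted p of 1.0 by edgeR. Thin limb had 13.9 and 13.5 CPM against 34.9 and 56.7 CPM, a log2 fold change of 1.73 ± 0.43 (SE) (adjusted p = 0.632, edgeR). *Ciart*, which encodes a repressor of CLOCK and BMAL1, had 4.52 and 3.96 CPM against 11.4 and 13.4 CPM in proximal tubule, with a log2 fold change of 1.51 ± 0.23 (SE) (adjusted p = 0.999, edgeR). *Cry2* had 24.6 and 20.5 CPM against 27.2 and 43.4 CPM in the same class, with knockout mouse 2 highest. *Bhlhe40* overlapped between genotypes in proximal tubule, with 42.2 and 56.7 CPM against 45.5 and 59.2 CPM. *Bhlhe41* and *Arntl2*, a relative of *Arntl*, were scarce, and *Arntl2* had 12.1 and 4.51 CPM against 22.7 and 5.04 CPM in proximal tubule, with mouse 1 of each genotype higher than mouse 2.

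Of the nuclear receptors that act against the REV-ERBs, *Rora* overlapped between genotypes in proximal tubule, with 385 and 454 CPM against 328 and 687 CPM, and had 2903 and 2824 CPM against 2439 and 2668 CPM in interstitial cells. *Rorb* was found almost wholly in intercalated cells, the acid-base cells of the collecting duct, where it had 548 and 566 CPM in the controls and 567 and 577 CPM in the knockouts, while proximal tubule had at most 1.38 CPM. In intercalated cells the counting intervals of the 4 mice overlapped. *Hlf*, the third PAR bZIP factor, had 168 and 148 CPM against 199 and 258 CPM in proximal tubule and 30.8 and 14.7 CPM against 47.4 and 75.6 CPM in thin limb, above the controls in both knockout mice in each. *Nfil3*, which represses from D-boxes, had 10.2 and 16.2 CPM against 1.36 and 0 CPM in endothelial cells, on 19 UMIs.

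Genes that follow the clock in many tissues were mixed. *Usp2*, a deubiquitinase, had 106 and 61.0 CPM in the controls and 139 and 244 CPM in the knockouts in thick ascending limb (log2 fold change 1.19 ± 0.36 (SE), adjusted p = 1.0, edgeR) and 83.8 and 56.1 CPM against 114 and 161 CPM in proximal tubule. *Wee1*, a kinase of the cell cycle, had 7.97 and 10.4 CPM against 11.2 and 31.1 CPM in proximal tubule. *Tsc22d3*, which also responds to glucocorticoids, had 49.1 and 40.7 CPM against 71.2 and 129 CPM there. *Tspan4* had 13.9 and 13.1 CPM against 18.8 and 21.7 CPM, *Alas1*, the first enzyme of heme synthesis, 145 and 174 CPM against 118 and 165 CPM, and *Por*, the partner of cytochrome P450 enzymes, 244 and 282 CPM against 279 and 284 CPM. *Nampt* had 109.8 and 95.5 CPM against 187 and 165 CPM in connecting tubule. Of the kinases and ubiquitin ligases that control the stability of PER and CRY, *Csnk1d* had 56.2 and 59.1 CPM against 58.0 and 62.1 CPM, *Csnk1e* 1.76 and 3.41 CPM against 1.44 and 1.96 CPM, *Btrc* 126 and 154 CPM against 125 and 136 CPM and *Fbxl21* 5.98 and 9.29 CPM against 7.27 and 5.55 CPM in proximal tubule.

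**Figure D4:**
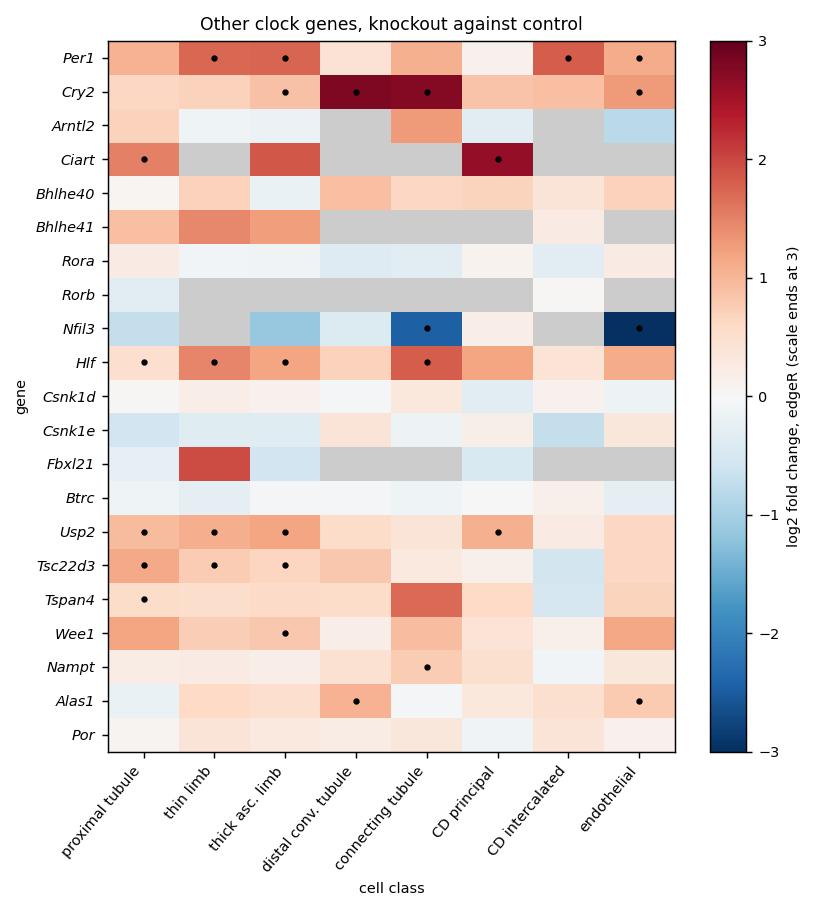
Log2 fold change of knockout against control fitted by edgeR for further clock genes (rows) in 8 classes (columns), grey where UMIs were too few, with a dot where the unadjusted p was under 0.05. None passed the adjusted threshold of 0.05, and at the unadjusted one 30 of 210 combinations over all 12 classes were higher and 4 lower, beside 1.5% and 1.68% of all genes and classes. The list was chosen with earlier results of these data known, so that nothing is read from this contrast.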

How the data were processed

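Nuclei came from a middle slice, kept in RNAlater, of the kidney of each mouse, and libraries were made with 10x Genomics 3′ chemistry. The authors deposited unfiltered UMI counts per gene and barcode, made with Cell Ranger 3.0.2 on mm10, and analysed them with Seurat 3.2.1.35, per their processing notes. From these, the 10000 barcodes with the most UMIs in each library were taken, and nuclei were kept if they had more than 500 but fewer than 4000 genes and a mitochondrial share below 5% (27343 in all). They were clustered with Seurat 5.3.0 (2000 variable genes, 30 dimensions, resolution 0.5, libraries integrated), and 2 clusters of mixed markers were split again. A class was given where at least 3 markers were found. The 1034 nuclei of clusters with few UMIs and many mitochondrial ones and 674 of clusters with mixed markers were left out, which leaves 25635. These thresholds were set after the clusters had been seen. Doublets called with scanpy 1.11.5 (236 to 512 nuclei a library) were left in and taken out as an alternative.

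For each class, UMIs were added up within a mouse and divided by their total to give CPM, with exact 95% Poisson intervals, which cover counting error only. Tests used edgeR 4.0.16 (quasi-likelihood, TMM, genes with at least 10 UMIs, Benjamini-Hochberg over the genes of a class), and DESeq2 1.42.0 was an alternative. On simulated counts the test was checked for its recovery of known changes. The genes listed and the other lists were chosen with earlier results of these data known. Named are the 10 clock genes, the 23 further ones, and by fixed rule the 2 genes most like each clock gene over mice and the 1 most like it over classes, among genes with a mean of at least 20 CPM. Counts over the 23 include genes that are not reported here by name. With 2 mice a group, p-values set the difference between groups against the spread within groups. That spread rests on these 4 mice only and is estimated with information shared over the genes of a class. Alternatives were other clusterings, doublets out, under 1% mitochondrial UMIs, free RNA subtracted, other filters and scalings, and each mouse left out. Leaving out each mouse for the counts without overlap was chosen after seeing the data.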

Additional observations from a re-analysis of the deposited data

Results flagged for a closer look

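*Nr1d2* was the only clock gene for which the mice moved in opposite ways in different classes without overlap. As log2 ratios of the knockout mean to the control mean, with 1 CPM added, it was above in both knockout mice by 2.32 in podocytes, 1.98 in connecting tubule, 1.42 in distal convoluted tubule, 1.27 in principal cells, 0.75 in thick ascending limb, 0.74 in thin limb, 0.39 in proximal tubule, 0.65 in intercalated cells, 0.87 in the deep medullary epithelium of the pelvis, 1.14 in endothelial cells and 1.95 in interstitial cells. In immune cells it was below in both, at -1.88. The latter rests on 5, 2, 3 and 0 UMIs in control mouse 1, control mouse 2, knockout mouse 1 and knockout mouse 2, and the difference between classes was not tested.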

How the results depend on the processing

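The count of further clock genes called higher in the knockout mice, 0 of 210 combinations by edgeR, was 4 without a filter on low counts (among them *Per1* in thin limb, and *Usp2* and *Per1* in thick ascending limb) and 0 under every other alternative except those below. With each mouse left out in turn it ranged from 0 to 5, and was 5 without knockout mouse 1 (among them *Per1* in thin limb, and *Usp2* and *Per1* in thick ascending limb), a fit in which the lone knockout mouse is assumed to vary like the controls. With the replicate number as a block it was 5, all in thin limb (among them *Tsc22d3*, *Usp2*, *Per1* and *Hlf*). The labels do not say that a number pairs mice, and deviations of mice with the same number correlated at 0.0984 to 0.582 over classes, with only 2 pairs. None was called lower under any alternative. The listed clock genes lay above in the knockout mice in 37 to 49 combinations and below in 16 to 25 under the other scaling, clusterings and choices of nuclei, where over all genes 14.4% to 17.2% lay above and 13.9% to 16.2% below. With each mouse left out the counts were 52 to 59 and 26 to 33, where over all genes 30% to 34.1% lay above and 30.5% to 33.5% below. Of the 97 log2 ratios of knockout to control means, 25 moved by more than the spread between mice once free RNA was subtracted, with no change of sign, and 28 without knockout mouse 2, with 7 changes of sign. With nuclei under 1% mitochondrial UMIs, which left no immune cells in control mouse 1, 31 of 95 moved and 7 changed sign. Depth limits *Cry1* in most classes, and all genes in immune cells and podocytes.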

Other observations

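The clock genes were also counted in the clusters that were given no class. In the largest cluster with mixed markers, of 55 to 132 nuclei a mouse, *Per2* had 40.9 and 27.1 CPM in the controls and 58.0 and 146 CPM in the knockouts, and *Arntl* had 45.8 and 33.9 CPM in the controls and 29.0 and 5.46 CPM in the knockouts. Knockout mouse 2 was thus highest for *Per2* and lowest for *Arntl* there too. In the largest cluster with few UMIs and many mitochondrial ones, *Per2* came to 1 to 3 UMIs a mouse, too few to order the mice.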
